A study of Mus musculus with 9 samples.

Results

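The receptor phosphatase Ptprz1, its ligands pleiotrophin and midkine (Ptn and Mdk), the tenascins Tnc, Tnr and Tnxb, the adhesion protein Cntn1 and the receptor kinase Alk were examined on every probe set that the platform annotation names for them. These are 15 probe sets of 8 genes, among 45037 probe sets other than controls, and the annotation names 18193 genes in all. Arrays were hybridised with RNA from passage 3 neurospheres, colonies grown in suspension, of C57BL/6J mouse embryos of embryonic day 12.5. BMP NCSC were spheres from dorsal root ganglia (DRG), the sensory ganglia beside the spinal cord, cultured with 10 ng/ml BMP4 (bone morphogenetic protein 4) in addition to 20 ng/ml bFGF and 20 ng/ml EGF. The rNCSC were DRG spheres in the same medium without BMP4, and SCSC were spinal cord spheres in that medium. Each group had 3 arrays. The labels do not tell whether arrays of 1 group stand for separate cultures or litters, so SD, SE and p-values describe the spread between these arrays, which may be technical, and the number of arrays limits the precision. No transgene or deletion is given for any group. The genes were chosen by family, with the log2 differences of BMP NCSC from the other spheres in these data already known. Their values against BMP NCSC are therefore given as a description and without a test.

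PTPRZ1 is a transmembrane tyrosine phosphatase that carries chondroitin sulfate chains, and its secreted extracellular form is known as phosphacan. It is typical of radial glia and of oligodendrocyte precursors. Pleiotrophin binds its sugar chains and holds the phosphatase inactive, while contactin-1, tenascin-C and tenascin-R bind its extracellular part. Tenascin-C is a matrix glycoprotein of germinal zones and of forming cartilage and tendon, tenascin-R is made mainly by oligodendrocytes and some neurons, and tenascin-X, the product of Tnxb, belongs to connective tissue. Midkine is the relative of pleiotrophin, and ALK is a receptor tyrosine kinase to which both have been reported to bind.

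The promoters of the 3 genes with the clearest differences between probe sets or groups are shown for the letters around their transcription starts. They come from RefSeq (build GRCm38.p6), as the 250 bases before and the 50 bases after the start, 5′ to 3′ along the gene. Ptprz1 and Ptn both lie on chromosome 6 and Tnc on chromosome 4.
Ptprz1 promoter, chr6:22875252-22875551, plus strand: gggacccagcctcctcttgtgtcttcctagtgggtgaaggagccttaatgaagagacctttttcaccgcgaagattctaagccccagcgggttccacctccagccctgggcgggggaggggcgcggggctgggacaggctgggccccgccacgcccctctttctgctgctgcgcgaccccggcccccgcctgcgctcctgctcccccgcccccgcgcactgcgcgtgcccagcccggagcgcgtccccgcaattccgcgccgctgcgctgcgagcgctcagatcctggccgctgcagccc
Tnc promoter, chr4:64046966-64047265, minus strand: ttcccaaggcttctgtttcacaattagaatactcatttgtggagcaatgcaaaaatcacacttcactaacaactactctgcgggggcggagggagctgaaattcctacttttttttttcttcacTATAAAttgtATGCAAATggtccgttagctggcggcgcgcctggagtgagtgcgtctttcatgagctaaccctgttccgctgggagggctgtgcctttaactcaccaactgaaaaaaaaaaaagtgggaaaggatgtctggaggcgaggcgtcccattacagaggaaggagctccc
Ptn promoter, chr6:36810130-36810429, minus strand: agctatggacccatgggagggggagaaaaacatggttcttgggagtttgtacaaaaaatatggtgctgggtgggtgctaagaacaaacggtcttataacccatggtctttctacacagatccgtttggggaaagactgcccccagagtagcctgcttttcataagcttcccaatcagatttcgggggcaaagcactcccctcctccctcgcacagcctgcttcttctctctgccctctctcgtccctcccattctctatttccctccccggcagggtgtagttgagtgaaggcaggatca
Capitals mark matches to any of 6 motifs searched on both strands, which did not overlap in these windows. The motifs were a TATA box (TATAAA), the core of SOX sites (AACAAT), the POU octamer (ATGCAAAT), the E-boxes CAGCTG and CAGATG, and GGCGCC, a sequence bound by BMP-responsive SMAD proteins. The Tnc window holds TATAAA starting at position -126 from the transcription start and ATGCAAAT at position -116. Of all 32851 promoter windows in that table, 13.6% hold TATAAA and 1.74% hold the octamer on either strand. The other shares were 10.7% for AACAAT, 16.3% for CAGCTG, 17.2% for CAGATG and 11.9% for GGCGCC. A window from a further annotated start of Tnc overlaps the printed one and holds the same matches at -205 and -195. The Ptprz1 and Ptn windows match none of these letters. They differ in base composition, with 71.7% G and C in Ptprz1, 52% in Ptn and 47.3% in Tnc, where the median window has 52.7%.

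The values are log2 intensities made by the submitters with GCRMA, in which unexpressed transcripts gather at low values. The size of a difference that involves a mean under 4 is therefore uncertain. Array medians lay between 3.98 and 4.03, and 38.7% to 39.9% of probe sets reached 5. A probe set was tested when it reached 5 on at least 3 arrays, as 19914 did. Of the 15 member probe sets 10 passed, and they stand for Ptprz1, Ptn, Tnc and Cntn1. The single probe sets of Mdk, Tnr, Tnxb and Alk and 1 of the 3 for Cntn1 did not pass.

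Spheres were set against markers of the cells they could hold. The mean of 7 CNS progenitor genes lay between 2.98 and 3.06 on BMP NCSC arrays, between 11.2 and 11.5 on rNCSC arrays and between 11.2 and 11.5 on SCSC arrays. The mean of 5 neural crest and Schwann cell genes lay between 10.2 and 10.4 in BMP NCSC, 3.42 and 3.80 in rNCSC and 3.35 and 3.50 in SCSC. In rNCSC none of those 5 crest genes had a mean of 5, although the spheres came from a crest-derived ganglion. The mean of 7 mesenchyme and cartilage genes lay between 12.1 and 12.4 in BMP NCSC, 3.43 and 3.72 in rNCSC and 3.48 and 3.60 in SCSC. Oligodendrocyte lineage markers lay between 8.66 and 9.03 in BMP NCSC, 6.12 and 7.12 in rNCSC and 6.38 and 6.76 in SCSC. Neuron markers lay between 3.66 and 4.31 in BMP NCSC, 3.79 and 4.53 in rNCSC and 4.16 and 4.71 in SCSC. Astrocyte markers lay between 5.75 and 6.56 in BMP NCSC, 6.09 and 7.25 in rNCSC and 5.97 and 6.31 in SCSC. The 4 endothelial, 4 microglial, 2 erythroid and 4 skeletal muscle genes had no group mean of 5. In the CNS progenitor list Nes was lower in BMP NCSC but not near the floor, with means of 7.61 there and 10.3 in rNCSC. In the mesenchyme list Prrx1 had means of 6.09 in rNCSC and 6.88 in SCSC, and 12.4 in BMP NCSC. Single markers within the oligodendrocyte, neuron and astrocyte lists went different ways. The oligodendrocyte lineage gene Cspg4 had means of 11.9 in BMP NCSC and 8.29 in rNCSC, and Cnp of 9.55 in BMP NCSC and 10.9 in rNCSC. Pdgfra had means of 6.79 in BMP NCSC and 5.48 in rNCSC, and Mbp of 4.21 in BMP NCSC and 4.3 in rNCSC. Sox10, with 11.6 in BMP NCSC and 4.14 in rNCSC, stands in both the oligodendrocyte and the crest list. The astrocyte list held S100b, with means of 12.5 in BMP NCSC and 5.88 in rNCSC, and the glutamate transporter gene Slc1a3, with 8.29 in BMP NCSC and 12.6 in rNCSC. The CNS progenitor, crest and mesenchyme list means separated BMP NCSC from the other spheres without overlap, as did the genes described here as lower. So did the oligodendrocyte list mean, which includes the crest gene Sox10 and is thus not separate from the crest list. The part of these cell types in the results was not tested. In whole spheres, fewer cells of a type and less RNA per cell cannot be told apart.

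In BMP NCSC the receptor Ptprz1 and the matrix gene Tnc were far lower than in either kind of sphere grown without BMP4, and Cntn1 was lower to a smaller extent. The ligand gene Ptn was lower too, but by amounts that differed between its probe sets, and it kept high values on 2 of the 3. Tnxb, Mdk and Alk stayed under the filter level on all 9 arrays, and Tnr passed it on 1. Against rNCSC, 11 of the 15 probe sets were lower by at least 1 on the log2 scale and none was higher by that much, where 10.8% of all 45037 probe sets were lower and 11% higher by that much. The 3 BMP NCSC arrays lay wholly below the rNCSC arrays for 12 of the 15, against 31.6% of all probe sets. Those 12 include Mdk, with its highest BMP NCSC array at 3.983 and its lowest rNCSC array at 3.986. The 11 include Tnr, of which the arrays overlapped and the difference became -0.07 without rNCSC replicate 3. Against SCSC, 10 of the 15 were lower by at least 1 and none higher, where 11.7% and 11.3% of all were, and 11 were wholly lower, where 31.8% of all were. Both comparisons use the same BMP NCSC arrays, and the genes were proposed from such differences, so these counts describe the choice of genes.

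**Figure D1:**
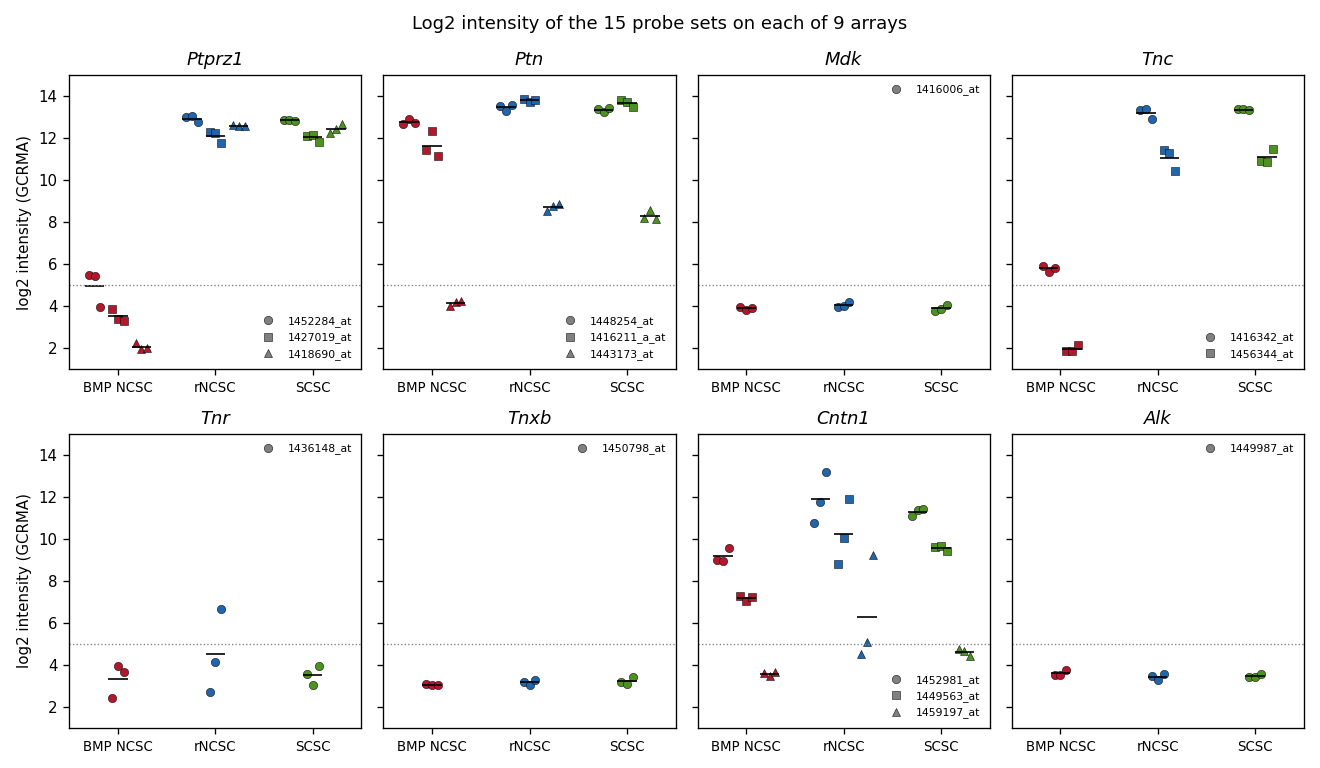
Log2 intensity of each probe set on each array, with 1 panel per gene, a marker shape per probe set and a horizontal bar at each group mean. The dotted line is the filter level of 5. BMP NCSC arrays lie below the others for Ptprz1, Ptn, Tnc and Cntn1, and 1 rNCSC array stands high for Cntn1 and Tnr.

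The receptor was measured by 3 probe sets. On 1452284_at, Ptprz1 was at 5.47, 5.45 and 3.95 in BMP NCSC, at 12.99, 13.03 and 12.75 in rNCSC and at 12.87, 12.84 and 12.80 in SCSC. On 1427019_at it was at 3.86, 3.42 and 3.30 in BMP NCSC, at 12.30, 12.22 and 11.74 in rNCSC and at 12.11, 12.16 and 11.82 in SCSC. On 1418690_at it was at 2.24, 1.95 and 2.01 in BMP NCSC, at 12.61, 12.55 and 12.55 in rNCSC and at 12.22, 12.40 and 12.64 in SCSC. Every BMP NCSC array was low and every other array high, with no overlap on any probe set. In BMP NCSC 2 arrays of 1452284_at stood above the filter level, and replicate 3 was below it. BMP NCSC minus rNCSC was -7.97 (SE 0.36), -8.56 (SE 0.20) and -10.51 (SE 0.13) on these probe sets, and BMP NCSC minus SCSC was -7.88 (SE 0.36), -8.51 (SE 0.20) and -10.36 (SE 0.13). The BMP NCSC mean was 3.53 on 1427019_at and 2.07 on 1418690_at, close to the bottom of the measured range. With values under 4 set to 4, the differences of Ptprz1 from rNCSC on those probe sets became -8.09 and -8.57.

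Among the ligands, Ptn gave a different picture on each of its 3 probe sets. On 1448254_at, Ptn was at 12.68, 12.88 and 12.69 in BMP NCSC, at 13.50, 13.28 and 13.56 in rNCSC and at 13.37, 13.25 and 13.43 in SCSC. On 1416211_a_at it was at 11.44, 12.31 and 11.12 in BMP NCSC, at 13.85, 13.73 and 13.82 in rNCSC and at 13.82, 13.73 and 13.48 in SCSC. On 1443173_at it was at 3.99, 4.21 and 4.23 in BMP NCSC, at 8.55, 8.75 and 8.86 in rNCSC and at 8.19, 8.55 and 8.14 in SCSC. BMP NCSC lay below both other groups on all 3 probe sets without overlap, by little on the first of them and by much on the last. For Ptn, BMP NCSC minus rNCSC was -0.69 (SE 0.11), -2.17 (SE 0.27) and -4.57 (SE 0.14), and BMP NCSC minus SCSC was -0.60 (SE 0.11), -2.05 (SE 0.27) and -4.15 (SE 0.14). On 1443173_at the BMP NCSC arrays were near the array median, so the size there is uncertain. The size of the Ptn difference therefore depends on the probe set, and the transcripts each one reads were not analysed here. On both 1448254_at and 1416211_a_at, Ptn stayed above 11 on every BMP NCSC array.

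Midkine was read by a single probe set, on which Mdk was at 3.98, 3.81 and 3.93 in BMP NCSC, at 3.99, 4.01 and 4.19 in rNCSC and at 3.77, 3.86 and 4.08 in SCSC. All 9 arrays were near the array median, and the groups differed by less than 0.2. The receptor kinase gene Alk lay between 3.27 and 3.75 over the 9 arrays on its single probe set. Its group means were 3.60 ± 0.12 in BMP NCSC, 3.43 ± 0.15 in rNCSC and 3.47 ± 0.09 in SCSC (SD, n = 3 each), and all groups overlapped. A value at this level does not tell a low transcript from none, so these values do not show that Mdk or Alk was absent.

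Of the tenascins, Tnc was read by 2 probe sets. On 1416342_at, Tnc was at 5.92, 5.63 and 5.83 in BMP NCSC, at 13.33, 13.37 and 12.90 in rNCSC and at 13.36, 13.37 and 13.33 in SCSC. On 1456344_at it was at 1.89, 1.89 and 2.17 in BMP NCSC, at 11.42, 11.30 and 10.41 in rNCSC and at 10.89, 10.86 and 11.45 in SCSC. BMP NCSC was low on all arrays and the other groups were high, without overlap. For Tnc, BMP NCSC minus rNCSC was -7.40 (SE 0.14) and -9.06 (SE 0.27), and BMP NCSC minus SCSC was -7.56 (SE 0.14) and -9.08 (SE 0.27). On 1416342_at the BMP NCSC arrays still stood above the filter level, whereas on 1456344_at they were close to the bottom of the range. With values under 4 set to 4 the differences on 1456344_at were -7.04 against rNCSC and -7.07 against SCSC. BMP NCSC were low in Tnc while their cartilage and mesenchyme markers were high.

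Tnr was at 2.45, 3.97 and 3.65 in BMP NCSC, at 2.71, 4.16 and 6.68 in rNCSC and at 3.56, 3.03 and 3.93 in SCSC. Only rNCSC replicate 3 rose above the filter level, and all groups overlapped. For Tnr, BMP NCSC minus rNCSC was -1.16 (SE 0.86) and became -0.07 without rNCSC replicate 3. Tnxb lay between 3.03 and 3.43 on the 9 arrays, with group means of 3.06 ± 0.04 in BMP NCSC, 3.17 ± 0.12 in rNCSC and 3.24 ± 0.17 in SCSC (SD, n = 3 each). The groups overlapped for Tnxb, including in BMP NCSC, where other connective tissue genes were high. The tenascin that is not among the 8 genes, tenascin-W (Tnn), did not pass the filter either. It was at 3.72, 3.56 and 5.52 in BMP NCSC, at 2.93, 3.03 and 2.95 in rNCSC and at 3.11, 3.03 and 3.11 in SCSC. For Tnn the BMP NCSC arrays lay above all others without overlap, and only replicate 3 exceeded the filter level.

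Cntn1, a membrane-anchored immunoglobulin superfamily protein that binds PTPRZ1, had its 3 probe sets move alike. On 1452981_at, Cntn1 was at 9.01, 8.94 and 9.56 in BMP NCSC, at 10.77, 11.73 and 13.19 in rNCSC and at 11.06, 11.35 and 11.40 in SCSC. On 1449563_at it was at 7.29, 7.04 and 7.22 in BMP NCSC, at 8.82, 10.04 and 11.89 in rNCSC and at 9.59, 9.66 and 9.44 in SCSC. On 1459197_at, which did not pass the filter, it was at 3.64, 3.46 and 3.69 in BMP NCSC, at 4.53, 5.11 and 9.25 in rNCSC and at 4.76, 4.67 and 4.43 in SCSC. BMP NCSC lay below both groups without overlap on all 3, and rNCSC replicate 3 stood above every other array on all 3. For Cntn1, BMP NCSC minus rNCSC was -2.73 (SE 0.51) on 1452981_at and -3.06 (SE 0.62) on 1449563_at, and without rNCSC replicate 3 these were -2.08 and -2.24. On 1459197_at the difference was -2.70 (SE 1.0) with that array and -1.22 without it. BMP NCSC minus SCSC was -2.10 (SE 0.51), -2.38 (SE 0.62) and -1.02 (SE 1.0). The array of rNCSC replicate 3 does not enter these differences. It does enter their SE, since the fit shares its spread over the 3 groups. On 1459197_at the SD was 0.12 in BMP NCSC, 0.17 in SCSC and 2.6 in rNCSC.

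**Figure D2:**
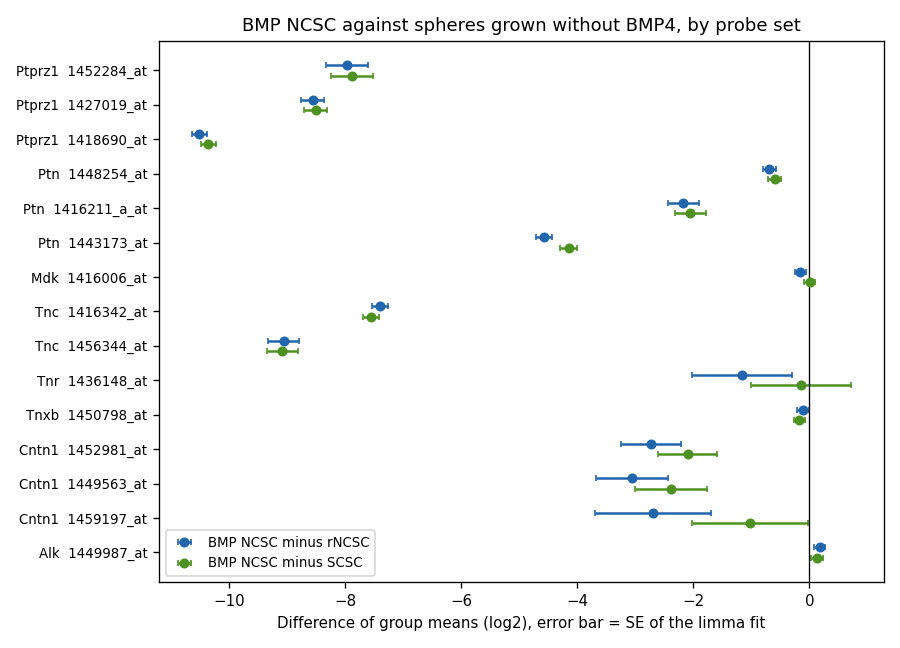
Difference of group means on the log2 scale for each probe set, BMP NCSC minus rNCSC and BMP NCSC minus SCSC, with the SE of the limma fit as error bars. The Ptprz1 and Tnc probe sets lie between -10.51 and -7.40, those of Ptn spread from -4.57 to -0.60, and Mdk, Tnxb and Alk lie near 0.

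The array of rNCSC replicate 3, high in Cntn1 and Tnr, also differed from its group on other probe sets. It exceeded the mean of rNCSC replicates 1 and 2 by 3.25 for Tnr and by 1.94, 2.47 and 4.44 for the Cntn1 probe sets. Among tested probe sets, 2.51% lay at least 1 above that mean and 2.43% at least 1 below it. The other 8 arrays, each set against the mean of the remaining arrays of its group, had 0.136% to 1.83% above and 0.0452% to 2.02% below. Of the fixed markers, the glial calcium-binding protein gene S100b was 3.10 higher there and the mesenchymal transcription factor gene Twist1 2.79 higher, while Prrx1, another mesenchymal factor, was 2.44 lower. Its list mean was 6.61 for oligodendrocyte markers, 4.11 for neuron markers and 7.25 for astrocyte markers, where the other rNCSC arrays had 6.12 and 7.12, 3.79 and 4.53, and 6.43 and 6.09. Their part in the Cntn1 and Tnr values was not tested. Ptprz1 and Tnc were not raised on that array, at -0.26, -0.52 and -0.03 and at -0.45 and -0.95 relative to replicates 1 and 2.

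The DRG spheres without BMP4 were then compared with the spinal cord spheres. On no probe set of the 15 did the rNCSC and SCSC arrays separate, where 6.03% of all probe sets were wholly higher in rNCSC and 8.51% wholly lower. None of the 10 tested was called by limma (adjusted p below 0.05 and a log2 difference of at least 1), and 1, a Ptn probe set, had an unadjusted p below 0.05. In the whole table limma called 1 of 19914 probe sets in this comparison, or 0.00502%, and 2594 had an unadjusted p below 0.05. Without rNCSC replicate 2 it called 25 higher and 58 lower. Tnr and Cntn1 1459197_at, both under the filter, were higher in rNCSC by at least 1, as were 0.464% of all probe sets. For Ptprz1, rNCSC minus SCSC was 0.08 on 1452284_at (95% interval -0.73 to 0.90, limma adjusted p = 0.96), 0.05 on 1427019_at (-0.39 to 0.50, limma adjusted p = 0.95) and 0.15 on 1418690_at (-0.14 to 0.44, limma adjusted p = 0.67). Ptprz1 differences beyond 1 in either direction lay outside these intervals. The intervals use the spread of all 3 groups, BMP NCSC included. On 1452284_at the SD was 0.87 in BMP NCSC, 0.15 in rNCSC and 0.033 in SCSC. For Tnc the difference was -0.15 on 1416342_at (-0.48 to 0.17, limma adjusted p = 0.69) and -0.02 on 1456344_at (-0.65 to 0.60, limma adjusted p = 0.99).

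For Ptn, rNCSC minus SCSC was 0.09 on 1448254_at (95% interval -0.16 to 0.35) and 0.12 on 1416211_a_at (-0.48 to 0.73), at limma adjusted p of 0.78 and 0.90. On 1443173_at it was 0.42 (0.10 to 0.75), an interval for this probe set alone, and the limma adjusted p over all probe sets was 0.28. Cntn1 had much wider intervals, at 0.63 on 1452981_at (-0.54 to 1.79, limma adjusted p = 0.65) and 0.68 on 1449563_at (-0.74 to 2.10, limma adjusted p = 0.69). These Cntn1 differences were -0.02 and -0.14 without rNCSC replicate 3, so their sign rested on that array. Differences of Cntn1 above 1 lay within both intervals.

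**Figure D3:**
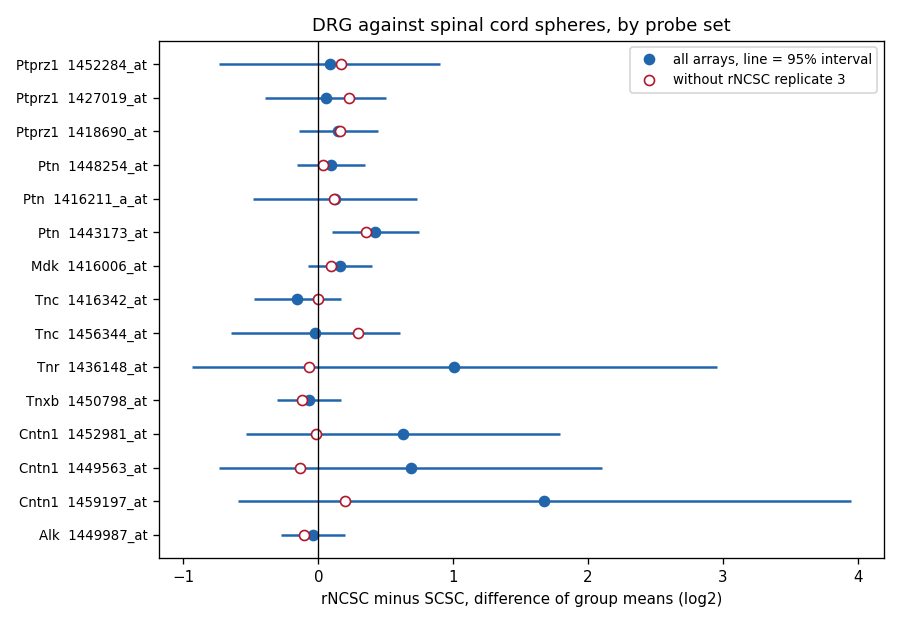
rNCSC minus SCSC on the log2 scale for each probe set, with the 95% interval of the limma fit as a line and the difference without rNCSC replicate 3 as an open circle. The open circles of Cntn1 and Tnr lie near 0, while their filled circles lie between 0.63 and 1.67.

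The profiles nearest to the members were sought among the other 10318 genes past the filter, with each gene's highest-mean probe set, by the root mean square difference of centred log2 values over the 9 arrays. Nearest to Ptprz1 were Wscd1 (0.405), Nap1l5 (0.415) and Cdh4 (0.416), the last a cadherin gene of neural tissue. Nearest to Tnc were the netrin receptor gene Dcc (0.137), the mitochondrial carrier gene Slc25a18 (0.159) and Sox3 (0.181), a transcription factor of neural progenitors. The mean of Cdh4 was 2.73 in BMP NCSC, 10.59 in rNCSC and 10.63 in SCSC. That of Sox3 was 2.96 in BMP NCSC, 10.17 in rNCSC and 10.54 in SCSC. The small Ptn difference on its highest probe set was nearest to Gpkow (0.0461), Cdk16 (0.0673) and Uqcr11 (0.0784). Cntn1 was nearest to Prr5l (0.348), Tmod2 (0.377) and Sys1 (0.382).

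Genes around PTPRZ1, its ligands and the tenascins were taken as lists drawn up with earlier results of these data known. Their counts, and the p-values of their genes against BMP NCSC, are therefore no independent evidence of a direction. A gene that could pass the filter only through the spheres in which it was high had to differ, and is given without a p. Among other receptors for pleiotrophin and midkine, genes were called in both directions. Of 16 listed genes 15 were tested, and limma called 7 higher and 3 lower in BMP NCSC than in rNCSC, with a median difference of 0.69. Of these 1 of the 7 and 2 of the 3 had a direction fixed by the filter. Over all 10319 genes tested, 22.6% were called higher and 21.3% lower, with a median of -0.07. The 3 of 15 called lower are thus near the share of all genes. Syndecan-3 (Sdc3), the heparan sulfate receptor through which pleiotrophin acts on neurites, was at 6.59, 6.05 and 6.16 in BMP NCSC, at 10.16, 10.29 and 9.24 in rNCSC and at 10.33, 10.35 and 9.68 in SCSC. It fell by 3.63 in BMP NCSC against rNCSC (SE 0.30, limma adjusted p = 7.1e-06). Syndecan-2 (Sdc2) was at 11.59, 11.71 and 11.61 in BMP NCSC, at 7.60, 7.33 and 7.60 in rNCSC and at 7.00, 7.13 and 6.84 in SCSC. It rose by 4.13 (SE 0.12, limma adjusted p = 9.2e-09). BMP NCSC did not overlap the other spheres for Sdc2 or Sdc3. Of the other syndecan genes, Sdc4 rose by 3.82 (limma adjusted p = 0.00011) and Sdc1 was not called, at a difference of 0.38.

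The glypican gene Gpc2, of which the product binds midkine in neural tissue, fell by 1.99 in BMP NCSC against rNCSC, and the reelin receptor gene Lrp8 by 2.51, and both were under 5 on every BMP NCSC array. The endocytic receptor gene Lrp1 rose by 3.60, and the Wnt co-receptor gene Lrp6 by 2.72 (limma adjusted p = 7.3e-06 and 8.7e-07). The integrin subunit gene Itgb3 had means of 6.33 in BMP NCSC and 2.76 in rNCSC, so it could pass the filter through BMP NCSC alone. Against SCSC, 6 of the 15 were higher and 3 lower, with a median of 0.96. Of all genes 22.9% were called higher and 24% lower, with a median of -0.10, so that 3 of 15 lower is near that share. In the ALK list 4 of 8 genes were tested. The adaptor gene Shc1 rose, with means of 8.22 in BMP NCSC and 4.62 in rNCSC, but it passed the filter only through BMP NCSC, and Irs1, Grb2 and Ptpn11 were not called. In that list the median difference was 0.33 against rNCSC and 0.23 against SCSC, with Shc1 as the 1 gene called higher in each. Of all genes 22.6% and 22.9% were called higher in these comparisons, and 4 genes are too few to compare with those shares. Of the ALK relatives, Ltk was under the filter at 3.11 in BMP NCSC and 3.02 in rNCSC, and Alkal1, Alkal2 and Frs2 were not matched to a probe set here.

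Among the other receptor tyrosine phosphatases, 11 of 18 were tested, of which 4 rose and 2 fell in BMP NCSC against rNCSC, with a median difference of 0.34. Over all genes 22.6% were called higher and 21.3% lower, so that 2 of 11 lower is near the share of all genes. Ptpro, a phosphatase of neurons and kidney podocytes, was the member that fell most, at 2.75, 2.75 and 2.83 in BMP NCSC, at 8.74, 9.26 and 8.85 in rNCSC and at 8.77, 8.99 and 8.92 in SCSC. BMP NCSC minus rNCSC was -6.18 for Ptpro (SE 0.14). Ptprf, known as LAR, fell by 1.12 (limma adjusted p = 5e-06). The homophilic adhesion phosphatase genes Ptprk and Ptprm rose by 3.11 and 2.54, and Ptprj and Ptprr by 2.75 and 2.80 (limma adjusted p = 1.6e-06, 6.5e-06 and 1.5e-05 for Ptprk, Ptprm and Ptprj). Ptprr had a mean of 3.40 in rNCSC, and Ptpro one of 2.78 in BMP NCSC, so the direction of both was fixed by passing the filter. Ptprg, the closest relative of Ptprz1, was at 10.45 ± 0.13 in BMP NCSC and 10.23 ± 0.29 in rNCSC and was not called (SD, n = 3 each). Against SCSC 5 rose and 2 fell, with a median of 0.42, where 22.9% of all genes were called higher and 24% lower. Without BMP NCSC replicate 1, 2 or 3, 3 rose. Ptprr could then not pass the filter, which does not account for the whole drop. Ptprd, called higher against SCSC but not against rNCSC, was near both limits of a call (1.02, limma adjusted p = 0.044).

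Substrates and scaffold partners of PTPRZ1 were all 11 tested, with 2 higher, 4 lower and a median difference of -0.46 in BMP NCSC against rNCSC. Over all genes 22.6% were called higher and 21.3% lower with a median of -0.07, so that 2 of 11 higher is near the share of all genes. The Src family kinase gene Fyn was at 8.89, 8.69 and 8.50 in BMP NCSC, at 12.23, 12.41 and 12.21 in rNCSC and at 12.33, 12.30 and 12.39 in SCSC. Fyn fell by 3.59 (SE 0.12, limma adjusted p = 2.1e-08), and the scaffold genes Magi1 and Magi3 by 2.46 and 2.29 (limma adjusted p = 1.3e-06 for Magi3). The adducin gene Add2 fell by 1.76. Magi1 and Add2 were under 5 on every BMP NCSC array, so they could pass the filter only through the other spheres. The adaptor gene Afap1l2 rose by 5.43 and the focal adhesion gene Pxn by 1.11 (limma adjusted p = 1.1e-06 and 1.5e-05). Git1, the p190 RhoGAP gene Arhgap35 and Ctnnb1, all described as PTPRZ1 substrates, were not called, at differences of -0.84, -0.46 and 0.18. Against SCSC 4 fell and 1, Afap1l2, rose, with a median of -0.56, where 24% of all genes were called lower and 22.9% higher.

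Of 16 contactin, contactin-associated and L1 family genes only 5 passed the filter. Cntn2, Cntn4, Cntn5 and Cntn6 were under 3.5 in all group means, and Cntn3 was at 5.68 ± 1.1 in BMP NCSC, 3.64 ± 1.2 in rNCSC and 2.97 ± 0.05 in SCSC (SD, n = 3 each), under the filter. In BMP NCSC against rNCSC, L1cam rose, at 9.28, 8.78 and 9.97 in BMP NCSC and 3.66, 3.24 and 3.43 in rNCSC, and it could pass the filter through BMP NCSC alone. Ncam1 and Ncam2 fell by 1.85 and 2.88 (limma adjusted p = 4.7e-06 for Ncam1), Ncam2 reached 5 on 1 BMP NCSC array, and Nrcam and Chl1 were not called, for a median difference of 0.67. Against SCSC, L1cam and Chl1 rose and Ncam1 and Ncam2 fell, with a median of 0.46. Without BMP NCSC replicate 1, 2 or 3 the number higher was 0 against rNCSC and 1 against SCSC. In those runs L1cam could not reach 5 on 3 arrays, so it was not tested. With quantile normalization, and with no filter, the number higher was 2 against rNCSC. The filter fixed the direction of L1cam and of Ncam2. Over all genes 22.6% were called higher and 21.3% lower against rNCSC, and 22.9% and 24% against SCSC. These 5 genes are too few to compare with those shares.

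Tenascin-binding receptors and matrix proteins split into genes that rose and genes that fell. Of 22 listed 17 were tested, with 10 higher, 5 lower and a median difference of 3.57 in BMP NCSC against rNCSC, where 22.6% of all genes were called higher and 21.3% lower. The direction was fixed by the filter for 4 of the 10 and 2 of the 5. The collagen gene Col14a1, of which the product binds tenascin-X, rose by 9.76, the cartilage proteoglycan gene Acan by 9.21, the small proteoglycan gene Dcn by 8.31 and the fibronectin gene Fn1 by 6.77 (limma adjusted p = 1.1e-07 for Fn1). Col14a1, Acan and Dcn had means under 3 in rNCSC, so their direction was fixed by the filter. Of the lecticans that bind tenascins, neurocan (Ncan) was at 4.50, 6.11 and 4.63 in BMP NCSC, at 11.73, 12.05 and 11.99 in rNCSC and at 11.78, 11.93 and 11.56 in SCSC. Ncan fell by 6.84 and brevican (Bcan) by 1.16, and Bcan was still at 11.66 ± 0.27 in BMP NCSC against 12.82 ± 0.16 in rNCSC (SD, n = 3 each, limma adjusted p = 9.4e-05 for Bcan). Versican (Vcan) fell by 2.08 with overlapping arrays (limma adjusted p = 0.023). Against SCSC the Vcan difference was -1.67 and was not called (limma adjusted p = 0.052). The EGF receptor gene Egfr, to which EGF-like repeats of tenascin-C bind weakly, fell by 6.87, and the integrin gene Itgb8 by 3.24 (limma adjusted p = 1.3e-05 for Itgb8). Egfr reached 5 on no BMP NCSC array and Ncan on 1, so both could pass the filter only through the other spheres. Against SCSC 9 rose and 4 fell, with a median of 3.60, where 22.9% of all genes were called higher and 24% lower. There 4 of 17 lower is near the share of all genes. The filter fixed the direction of 4 of the 9 and 2 of the 4. Without BMP NCSC replicate 1, 2 or 3 the number higher than rNCSC was 5, 5 and 6. Against SCSC it was 5 without BMP NCSC replicate 1 or 2. In all these runs the 4 higher genes with a direction fixed by the filter could not pass it. Against rNCSC this does not account for the whole drop without replicate 1 or 2. Itgb1, called higher than rNCSC at 1.005, was at the size limit and was not called against SCSC, at 0.98.

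**Figure D4:**
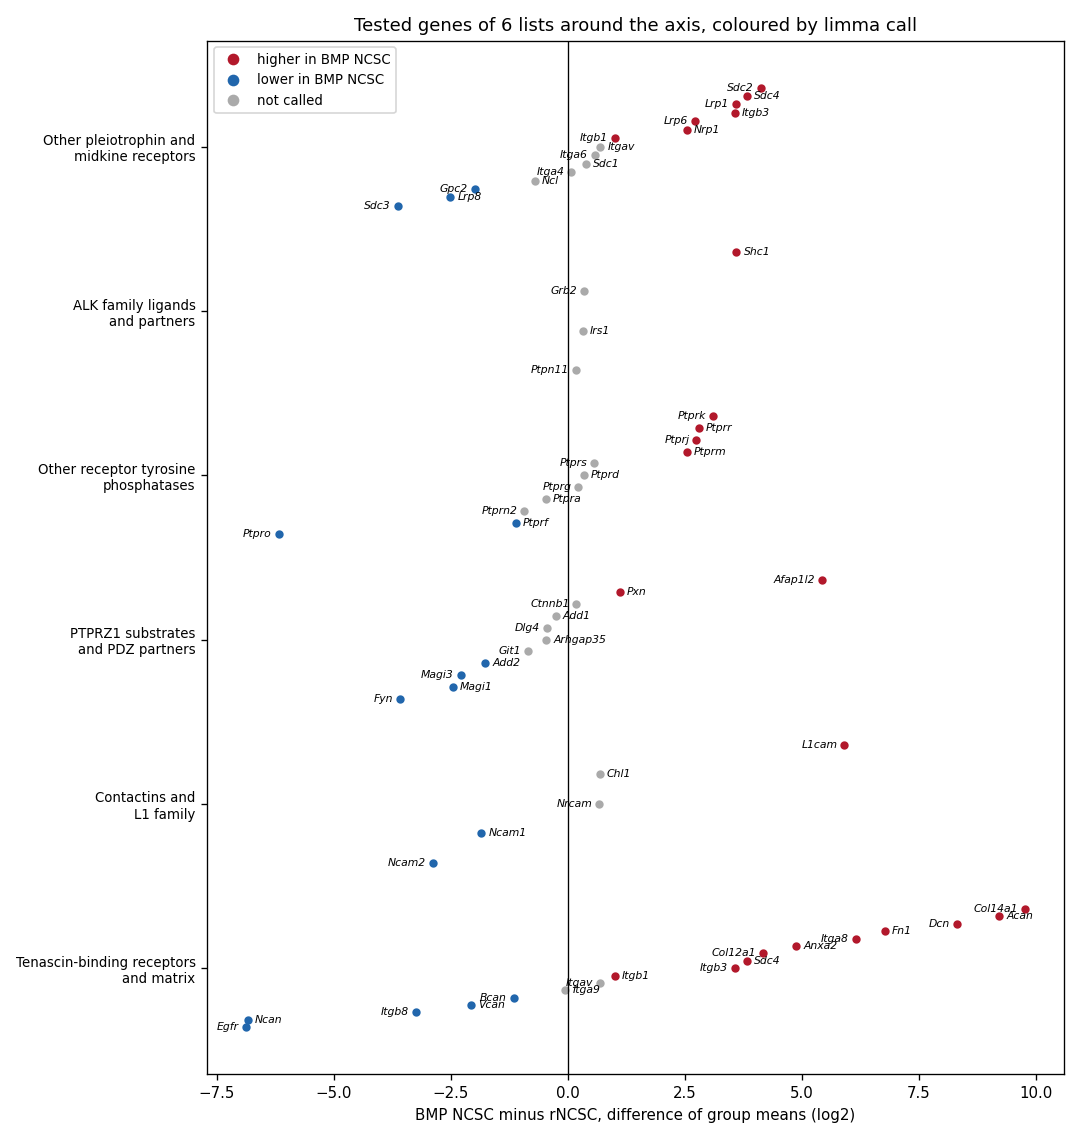
BMP NCSC minus rNCSC on the log2 scale for each tested gene of the 6 lists, by its highest-mean probe set, coloured by the limma call. Genes on both sides of 0 appear in every list but that of ALK partners, and the tenascin-binding list spans from -6.87 to 9.76.

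Itgav, Itgb1, Itgb3 and Sdc4 stand in both the receptor and the tenascin-binding lists. Of 59 list genes tested, 36 had more than 1 probe set past the filter, none had probe sets called in both directions, and Itgb1 and Ptprf had another probe set that was not called. Between rNCSC and SCSC, limma called none of the genes in these lists, where it called 0.00969% of all genes. Without rNCSC replicate 2, 1 PTPRZ1 substrate was called lower. Unadjusted p fell below 0.05 there for 3 of 15 pleiotrophin and midkine receptors, 0 of 4 ALK partners, 0 of 11 phosphatases, 1 of 11 PTPRZ1 substrates, 1 of 5 contactin and L1 genes and 1 of 17 tenascin-binding genes. The medians there were 0.03, -0.08, 0.05, -0.11, 0.10 and 0.16, where the median of all genes was -0.04.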

How the data were processed

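Biotinylated cRNA of mouse spheres was hybridised to Affymetrix mouse expression arrays, per the labels' protocols. The deposited values are log2 signals, 1 per probe set and array. The submitters' processing notes name GCRMA, of a version not given in the sources used here. That method corrects background by probe sequence and makes array distributions alike, so low values draw together and a change in total RNA would not show. Groups and replicate numbers came from the sample titles.

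The table had 45101 probe sets, 64 of them controls that were left out. The supplied platform annotation gave 1 symbol for 34958, several for 932, which were not named, and listed none for 9211. Entrez identifiers of 34754 were found in the GRCm38.p6 gene table, which changed 0 symbols and was used for names and chromosomes.

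The 3 group means were estimated in 1 model over 9 arrays by limma 3.58.1, run in R 4.3.3 (6 residual and 2.51 prior degrees of freedom), for the 19914 probe sets reaching 5 on at least 3 arrays. P-values are two-sided with Benjamini-Hochberg adjustment over those probe sets. Each SE and interval uses the spread of all 3 groups, including the group outside the comparison. To be called, a probe set needed adjusted p under 0.05 and a change of 1 or more (log2) in size. Values of probe sets under the filter come from a fit without it. For the lists, the brightest probe set on average stands for each gene. The steps were tested on simulated data. Of each list, the text names up to 4 called genes per direction with the smallest p in BMP NCSC against rNCSC. Other list genes and single markers named (such as Ptprg, Git1, Chl1, Tnn and S100b) were chosen after their values were seen. For each member past the filter it names the 3 nearest profiles. The members and lists were chosen with earlier results of these data known, so p-values of list genes against BMP NCSC are no independent evidence. The alternatives were a replicate block, 6 arrays, other filters, 1 probe set per gene, quantile normalization, a floor of 4, an intensity trend and leaving out each array.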

Additional observations from a re-analysis of the deposited data

How the results depend on the processing

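Leaving out each array in turn gave 2630 to 4190 probe sets higher and 4230 to 4432 lower in BMP NCSC than in rNCSC, where all arrays gave 4101 and 4334. Against SCSC the ranges were 2753 to 4250 and 4587 to 4844, where all arrays gave 4247 and 4741. The counts of higher probe sets dropped without BMP NCSC replicates 1, 2 or 3, when the filter asked for 3 arrays of which only 2 were BMP NCSC. With 1 probe set per gene there were 2335 higher and 2197 lower against rNCSC and 2366 and 2473 against SCSC, because fewer features were tested. Between rNCSC and SCSC the 1 probe set called lower became 0 with the replicate block, with only the 6 arrays compared and with an intensity trend. Without 1 array the counts there were 0 to 25 higher and 0 to 58 lower, the highest without rNCSC replicate 2, and the cause was not tested.

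Numbers shared by samples are not known to pair them. Same-numbered arrays had correlations of deviations from group means of 0.05 to 0.35, all positive, and the 3 pairs of replicate 1 were all under 0.1. Differently numbered arrays had correlations of -0.34 to 0.21. Whether the number marks a shared culture or batch is not known from the labels. The replicate block changed no other count by over 1.5 times. Of the named genes it changed only the call of Vcan against SCSC, to lower.

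All differences of Ptprz1, Ptn, Tnc and Cntn1 from BMP NCSC kept their sign under every alternative run. The floor at 4 moved Ptprz1 against SCSC to -8.03 on 1427019_at and -8.42 on 1418690_at. Between rNCSC and SCSC, none of these genes was called under any alternative, and leave-one-out values crossed 0 for Ptprz1 on 1427019_at (-0.052 to 0.228), Tnc on 1456344_at (-0.21 to 0.30) and Cntn1 on 1452981_at (-0.018 to 1.19) and 1449563_at (-0.14 to 1.40). Bcan against SCSC fell short of the size limit with quantile normalization (-0.958) and without SCSC replicate 1 (-0.986) or BMP NCSC replicate 1 (-0.857). Cntn1 1459197_at and the single probe sets of Mdk, Tnr, Tnxb and Alk were under the filter and were recomputed only without rNCSC replicate 3. Signal near the lower end of the scale, not the calls, limits the sizes for Ptprz1 and Tnc.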
